A study of Mus musculus with 2 samples.

Results

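Basophils, rare granulocytes of the blood that enter inflamed tissue, were identified by their transcripts in single cells of mouse back skin. A cell was taken as a basophil when it had at least 200 genes detected, at most 10% mitochondrial UMIs, at least 3 UMIs of Mcpt8 and at most 2 UMIs summed over the mast cell proteases Cma1, Mcpt4 and Tpsb2. A UMI, or unique molecular identifier, counts 1 captured transcript. The rule found 54 basophils among 18796 filtered cells, of which 50 were among 8499 cells of the IMQ library and 4 among 10297 cells of the Ctrl library. The cells were chosen from the same transcripts that are described here, so levels of Mcpt8 and of the 3 mast cell genes are not findings, and all other levels are given as a description of these cells with no test.

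The IMQ library came from the dorsal skin of wild-type female C57BL/6 mice aged 2 months that was treated with topical imiquimod, a Toll-like receptor agonist, once a day over 5 days, which gives a psoriasis-like dermatitis. The Ctrl library came from control skin of wild-type mice of the same strain, sex and age. Skin was digested with collagenase D and DNase1, dead cells were removed, and 3′ transcripts were counted by droplet sequencing. Each condition was 1 library, and how many animals went into each is not stated in the sources used here, so a difference between the libraries has no replicate check and treatment and library cannot be told apart.

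Basophils and mast cells both carry the high-affinity receptor for IgE, and both store histamine and proteases in granules, but mast cells mature in tissues whereas basophils leave the bone marrow mature and circulate. Basophil development depends on the transcription factor GATA2, and interleukin 3 acts on basophils. Mcpt8 encodes a granule protease that, in mice, marks basophils and not mast cells. Basophils are known as an early source of interleukin 4 in type-2 inflammation, and they have been studied mostly in allergic and parasite-exposed skin.

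The promoters of 4 genes that the results turn on are shown because GATA2, one of the markers of these cells, binds the motif GATA. The windows are RefSeq sequences on GRCm38.p6, read 5′ to 3′ on the strand of the gene, up to 250 bases before the RefSeq start and without bases that GENCODE places inside the gene. Capitals mark GATAA or its reverse complement TTATC, the only letters searched, and no match overlapped another.
Mcpt8, chr14:56085274-56085447, minus strand: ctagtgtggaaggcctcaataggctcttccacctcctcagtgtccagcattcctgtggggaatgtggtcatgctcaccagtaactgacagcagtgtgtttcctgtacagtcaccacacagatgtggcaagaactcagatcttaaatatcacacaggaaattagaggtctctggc
Prss34, chr17:25298144-25298393, plus strand: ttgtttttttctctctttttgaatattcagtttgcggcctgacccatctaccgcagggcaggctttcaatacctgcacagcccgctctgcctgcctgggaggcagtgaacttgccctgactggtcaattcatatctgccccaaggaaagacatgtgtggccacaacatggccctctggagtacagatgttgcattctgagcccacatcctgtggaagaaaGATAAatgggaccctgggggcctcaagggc
Cd200r3, chr16:44943428-44943677, plus strand: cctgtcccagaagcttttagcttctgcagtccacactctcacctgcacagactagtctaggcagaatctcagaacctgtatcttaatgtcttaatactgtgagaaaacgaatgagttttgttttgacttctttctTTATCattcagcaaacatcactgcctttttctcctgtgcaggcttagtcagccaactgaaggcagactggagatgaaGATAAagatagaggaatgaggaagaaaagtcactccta
Ms4a2, chr19:11623720-11623969, minus strand: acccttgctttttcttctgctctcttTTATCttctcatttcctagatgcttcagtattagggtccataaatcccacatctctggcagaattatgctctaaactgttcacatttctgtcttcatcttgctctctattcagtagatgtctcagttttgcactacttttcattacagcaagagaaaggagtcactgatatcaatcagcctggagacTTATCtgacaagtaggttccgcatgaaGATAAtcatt

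The window of Ms4a2 held 3 matches, with first bases at -224, -37 and -10 from the start. The window of Cd200r3 held 2, at -115 and -38, that of Prss34 held 1, at -30, and those of Mcpt8 and Il4 held 0. Of 32851 windows of 250 bases in the table, 7418 (22.6%) held a match, against 6 of 25 windows (24%) of the basophil identity list described below, for which 18 of 20 genes had a window. The matches are letters and not shown sites, and the identity genes held them about as often as promoters in general.

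The IMQ library held 9414 barcodes and 144054978 UMIs, and the Ctrl library held 10857 barcodes and 123088680 UMIs. The median filtered cell had 12650 UMIs in the IMQ library and 9596 in the Ctrl library. The libraries shared 23 barcode sequences, and none of these was a basophil. Scrublet, a doublet caller, marked 113 IMQ cells (1.33%, against 6.799% expected) and 420 Ctrl cells (4.08%, against 8.24% expected). It marked 0 of the basophils, and no doublets were removed.

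Basophils took 0.588% of cells (exact 95% interval 0.437 to 0.775) in the IMQ library and 0.0388% (0.0106 to 0.0994) in the Ctrl library. The ratio of the shares was 15.1 (5.56 to 57.7), and like every interval here it covers counting error only. Among cells with a UMI of Ptprc, the leukocyte gene that encodes CD45, together with all basophils, the shares were 3.41% and 0.577%, a ratio of 5.90 (2.17 to 22.5). Leukocytes as a whole were also more frequent, at 17.1% of IMQ cells and 6.70% of Ctrl cells, a ratio of 2.55 (2.32 to 2.79). The mast cell gate, at least 3 UMIs of Cma1, Mcpt4 and Tpsb2 with at most 2 of Mcpt8, held 39 IMQ cells and 39 Ctrl cells, and its ratio of 1.21 (0.757 to 1.94) included equal shares. When every cell was thinned to 2000 UMIs and needed 1 UMI of Mcpt8, the counts were 52 in the IMQ library and 5 in the Ctrl library, after 608 IMQ cells and 587 Ctrl cells too shallow for this were left out. The share of basophils was thus higher in the IMQ library at equal depth too, with a ratio of 12.8.

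The threshold fell inside a continuous range of Mcpt8 levels. In the IMQ library 7 basophils had exactly 3 UMIs of Mcpt8, and all 7 had Hdc, the enzyme that makes histamine, at 7 to 35 UMIs, and a UMI of Cd200r3 or Ms4a2. Just outside it were 12 cells with 1 or 2 UMIs of Mcpt8, 4 of which held fibroblast or keratinocyte transcripts. Of the other 8, Hdc was found in 7, at up to 26 UMIs, Cd200r3 or Ms4a2 in 6 and Il4 in 3. Il4 was found in 4 of the 7 cells at the threshold, mixed cells included. No cell with 3 or more UMIs of Mcpt8 was turned away for mast cell proteases, and no basophil of either library held a single UMI of Cma1, Mcpt4 or Tpsb2.

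The 50 IMQ basophils had from 1726 to 42655 UMIs, with a median of 4371, and the 4 Ctrl basophils from 2993 to 5193, with a median of 3587. In the IMQ library 8 of them also held transcripts of another cell type: 5 had at least 20 UMIs of the collagens Col1a1 and Col1a2, 2 had at least 20 UMIs of the keratins Krt5 and Krt14, and 1 had at least 2 UMIs of the Cd3 genes of T cells. Of these 8 cells, 1 also had at least 2 UMIs of Csf1r, a gene of mononuclear phagocytes. These mixed cells were deep, with a median of 17688 UMIs, and held 46.3% of all UMIs of the IMQ basophils, so results without them, over the other 42 cells with a median of 4111 UMIs, are also given where a call differs or a ratio moves by more than 1.5-fold. Of 7 fibroblast markers, 6 were at least 2-fold higher in the 50 basophils than in other leukocytes, and without the mixed cells 0 of 5 measured. One mixed cell, with 5032 UMIs and 4 of Mcpt8, held no UMI of Hdc, Ccl3, Cd200r3, Ms4a2 or Gata2, so its label rests on Mcpt8 alone. Without the 8 cells the ratio of IMQ to Ctrl shares was 12.7 (4.62 to 48.8).

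**Figure D1:**
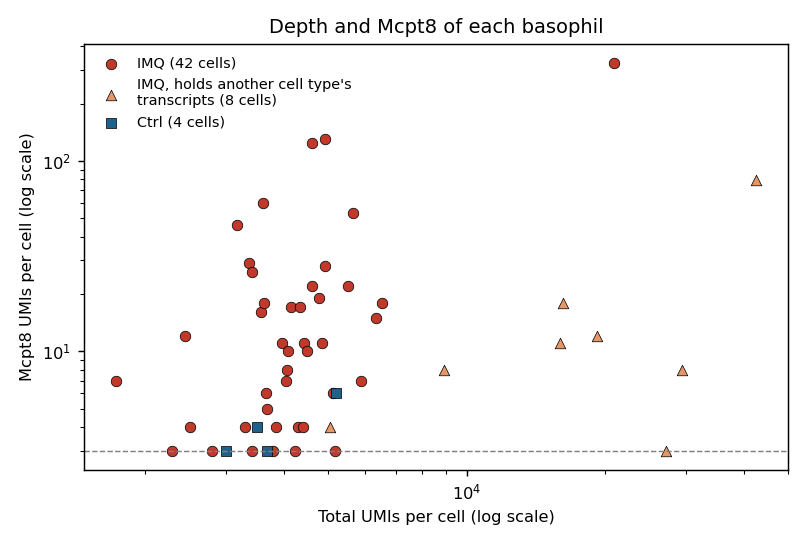
Each point is a basophil, with its total UMIs on the x axis and its Mcpt8 UMIs on the y axis, both on log scales, and the dashed line at the minimum of 3. The mixed IMQ cells (triangles) lie mostly to the right, at a median of 17688 UMIs, while the 4 Ctrl cells (squares) sit at 3 to 6 Mcpt8 UMIs.

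The label was checked against markers, leaving out the genes the rule used. In the 42 cells Gata2 was found in 40 cells, Cd200r3 in 36, Ms4a2 in 33 and Il4 in 31. Of the 6 mast cell markers outside the rule 5 were at 0, Tpsab1, Mrgprb1, Mrgprb2, Mitf and Rgs13, and 1 cell held 2 UMIs of Kit, the receptor for stem cell factor. Of 7 eosinophil markers Prg2, Ear6 and Il5ra were at 0, and the other 4 had 26 UMIs in 16 cells. These were 20 UMIs of Alox15, a lipoxygenase gene, 4 of Ccr3, the eotaxin receptor gene, and 1 each of Siglecf and Epx. The eosinophil list summed to 137 CPM (UMIs per 1000000 summed UMIs) in the 42 basophils, against 2.64 CPM in other leukocytes. The neutrophil genes Ly6g, Csf3r, Retnlg, Mmp9 and Ngp were at 0. Cxcr2, on the same list, had 26 UMIs in 15 IMQ basophils, mixed cells included, with up to 5 in a cell. The neutrophil list summed to 252 CPM in the 42 basophils, against 19440.2 CPM in other leukocytes. The macrophage genes C1qa, C1qb, C1qc, Ms4a7, Fcgr1 and Mrc1 were at 0 as well. The other 4 genes of the monocyte and macrophage list had 93 UMIs in 20 of the 42 cells, up to 30 in a cell. That list summed to 488 CPM in the 42 basophils, against 1269 CPM in other leukocytes. Its monocyte gene Ly6c2 had 82 UMIs in 12 IMQ basophils, mixed cells included, with up to 29 in a cell. All Cd3 genes were also at 0, but this is no check, since cells with at least 2 UMIs of them had been left out as mixed. Gata2, Cd200r3, Ms4a2 and Il4 were thus each present in most of the 42 cells, and of the eosinophil markers Alox15 held most of the UMIs. On the wider identity list described below, Hdc and Cyp11a1 were in all 42 cells and Fcer1a in 23. Prss34 was in 20, Il3ra and Il18r1 in 17 each, Itga2 in 9, Cd200r1 in 7 and Ptgdr2 in 0.

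The first comparison asked which transcripts set the 50 basophils apart from 1418 other leukocytes of the IMQ library, whose median was 4851 UMIs and which included T cells, mononuclear phagocytes, neutrophils and the mast cells with a UMI of Ptprc. A gene with at least 20 UMIs over both groups was called higher or lower when its CPM differed by at least 2-fold and the interval of the ratio excluded 1. Of 12146 genes, 664 (5.47%) were called higher and 1283 (10.6%) lower, and without mixed cells on either side 513 of 10532 (4.87%) higher and 1287 (12.2%) lower. The median log2 ratio of all genes was -0.22, and -0.11 without mixed cells. Among called genes 34.1% were higher, and 49.5% when ratios were centred on that median. The cells compared came from 1 library, and the ratio describes how these cells differ, not how animals do.

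Of 20 genes on the basophil identity list 19 were measured, and 18 were higher in basophils than in other leukocytes while 0 were lower. Without mixed cells 19 were higher, and the median log2 ratio was 5.63, against 4.52 with all cells. This list shares Mcpt8 with the rule, and its members were chosen as genes known in basophils. Ptgdr2, the prostaglandin D2 receptor used as a basophil marker in human blood, had 0 UMIs in basophils and was not measured. Gata2 (ENSMUSG00000015053, chromosome 6, 88193891 to 88207032, protein-coding), had 0 to 19 UMIs per basophil, with a median of 6.5, and stood at 1102 CPM in basophils against 12.5 CPM in other leukocytes, an 88.5-fold (72.5 to 109) ratio. Cd200r3, a member of the CD200 receptor family, was 76.3-fold (53.6 to 110.3) higher, at 324 against 4.24 CPM. Cyp11a1, the enzyme that starts steroid synthesis from cholesterol, was found in 49 of 50 basophils with a median of 5 UMIs, and was 73.6-fold (58.2 to 93.8) higher. Rab44, a Rab GTPase of granulocytes, was 23.0-fold (17.0 to 31.1) higher, and Itga2, which encodes the integrin chain CD49b used to gate basophils, had 11 UMIs in 10 cells and was 11.3-fold (5.11 to 23.4) higher, or 18.4-fold (7.75 to 40.9) without mixed cells.

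Granule proteases made up the next group. Of 14 measured members of the list of granule proteases and the granule proteoglycan, 6 were higher and 4 lower with all cells, and 6 and 5 without mixed cells. These counts include the genes of the rule, Mcpt8 among the higher and Cma1, Mcpt4 and Tpsb2 among the lower. Prss34 (ENSMUSG00000056399, chromosome 17, 25298394 to 25300165, protein-coding), a serine protease that mouse basophils are known for, had 861 UMIs in 23 of 50 basophils, from 0 to 584 per cell with a median of 0. It stood at 2426 CPM in basophils against 1.41 CPM in other leukocytes. Cpa3, the carboxypeptidase shared with mast cells, was found in 28 basophils and was 4.38-fold (3.72 to 5.14) higher, where 15 other leukocytes held all 1193 UMIs of the comparison group. Gzmb, the granzyme of cytotoxic lymphocytes, had 196 UMIs in 22 basophils and was 6.74-fold (5.74 to 7.88) higher. Srgn, the core protein on which granule contents are stored, had a median of 46 UMIs and was 3.39-fold (3.25 to 3.54) higher. Ctsg, which encodes cathepsin G, had 115 UMIs in basophils and 1 UMI in other leukocytes, but 95 of the 115 lay in 1 cell.

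The list of histamine and lipid mediator genes had 7 of 16 members called higher and 2 called lower, both with all cells and without mixed cells. Hdc had 0 to 89 UMIs per basophil with a median of 21, and it was present in 49 of 50. It stood at 3736 CPM in basophils and 171 CPM in other leukocytes, a 21.9-fold (20.4 to 23.5) ratio. Among single gates, Hdc stood at 2425 CPM in mast cells and 1021 CPM in neutrophils, and at 0.480 CPM in keratinocytes and fibroblasts. Slc18a2, the transporter that loads histamine into granules, was 67.9-fold (44.5 to 106) higher, with 75 UMIs in 26 cells. Alox5 and its helper Alox5ap, which begin leukotriene synthesis, were 6.45-fold (4.09 to 9.84) and 2.04-fold (1.86 to 2.24) higher. Alox15 had 24 UMIs in 16 basophils and 1 UMI in other leukocytes. Ptgs2, the inducible cyclooxygenase, was 2.59-fold (2.39 to 2.80) higher, whereas Hpgds, which makes prostaglandin D2, had 0 UMIs in basophils against 30.8 CPM in other leukocytes. Ltc4s, the leukotriene C4 synthase, had 2 UMIs in basophils and was not called. Hdc was therefore present in nearly every basophil, and the prostaglandin D2 synthase was not detected at this depth.

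The IgE receptor genes stood apart from the shared signalling chain. In the Fc receptor list 6 of 20 were higher and 7 lower with all cells, and 6 and 4 without mixed cells, and its median log2 ratio was -0.54 and -0.40. Ms4a2 (ENSMUSG00000024680, chromosome 19, 11615523 to 11623719, protein-coding), which encodes the beta chain of the IgE receptor, had 0 to 12 UMIs per basophil and was 110-fold (71.0 to 174) higher, at 279 against 2.55 CPM. Fcer1a, the IgE-binding chain, was found in 27 of 50 basophils and was 43.9-fold (31.6 to 61.3) higher. Fcer1g, the chain that Fc receptors share, stood at 938 CPM in basophils and 1356 CPM in other leukocytes and was not called. The adaptors Lat2 and Gab2 were 5.29-fold (4.11 to 6.72) and 3.29-fold (2.18 to 4.81) higher. Lyn, the kinase coupled to the IgE receptor, was lower in basophils, at 31.0 against 146 CPM, a ratio of 0.213 (0.106 to 0.382).

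**Figure D2:**
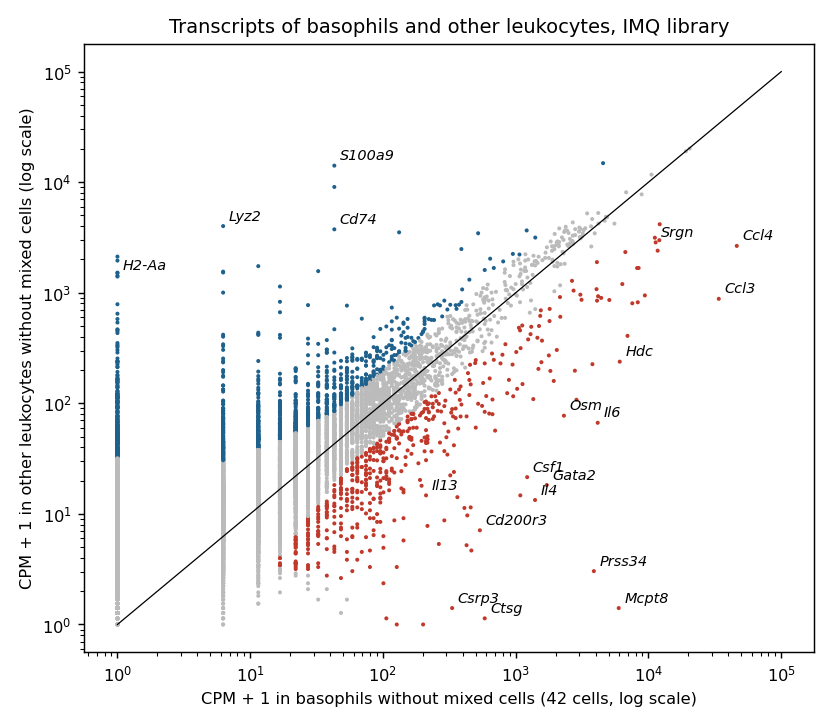
Each point is a gene, with its CPM plus 1 in the 42 basophils without mixed cells on the x axis and in other leukocytes without mixed cells on the y axis, both on log scales. Red genes were called higher in basophils and blue genes lower, and Ccl3, Ccl4, Hdc, Il6 and Il4 lie far to the right of the line of equal levels while Lyz2, S100a9 and Cd74 lie above it.

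Receptors for growth factors, cytokines and chemoattractants were mixed in direction. In the list of growth factor and cytokine receptors 6 of 21 were higher and 7 lower with all cells, and 6 and 6 without mixed cells. The higher ones encode chains of the receptors for interleukin 3, 18 and 33, which act on basophils. Il1rap, also on the list, was not called. Csf2rb and Csf2rb2, the signalling chains of the interleukin 3 receptor, had ratios of 5.19 (4.30 to 6.22) and 11.6 (8.59 to 15.4), and Il3ra, its binding chain, a ratio of 3.84 (2.57 to 5.56). Il1rl1, the receptor for interleukin 33, was 11.8-fold (8.37 to 16.5) higher, and the interleukin 18 receptor chains Il18r1 and Il18rap were 3.64-fold (2.58 to 5.02) and 3.48-fold (2.48 to 4.78) higher. Il4ra, the receptor for interleukin 4 itself, was lower, at 16.9 against 87.6 CPM, and at 0 UMIs in the 42 cells, as was Csf2ra, the binding chain for GM-CSF, at 5.64 against 91.1 CPM. Il7r, at 135 against 93.6 CPM, was not called.

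Among chemoattractant and homing receptors 5 of 26 were higher and 9 lower with all cells, and 5 and 7 without mixed cells. Cxcr4, which binds CXCL12, was 3.96-fold (3.08 to 5.04) higher, and the complement receptors C3ar1 and C5ar1 were 2.52-fold (1.69 to 3.65) and 2.26-fold (1.70 to 2.96) higher. Fpr1, Fpr2 and Ccr7 had 0 UMIs in all 50 basophils and were called lower. Ccr3, the eotaxin receptor, had 4 UMIs in 3 basophils, too few to be measured, and Itgb1 and Itgb7 were not called, at 214 and 186 CPM in basophils against 168 and 118 CPM in other leukocytes.

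In the list of secreted cytokines and growth factors 7 of 17 were higher and 2 lower with all cells, and without mixed cells 8 of 15 were higher and 2 lower. The median log2 ratios were 0.73 and 2.10. Il4 (ENSMUSG00000000869, chromosome 11, 53602982 to 53618669, protein-coding) had 289 UMIs in 37 of 50 basophils, from 0 to 79 per cell with a median of 1. Its level was 814 CPM (723 to 914) in basophils against 8.58 CPM (6.91 to 10.5) in other leukocytes, a 94.9-fold (74.7 to 121) ratio. An Il4 UMI was found in 74% (59.7 to 85.4) of basophils at a median depth of 4371 UMIs, against 0.0360% of 5559 keratinocytes and fibroblasts at a median depth of 16630 UMIs, which estimate free RNA. Il13, its partner in type-2 inflammation, was found in 20 basophils, at 161 CPM in basophils against 10.00 CPM in other leukocytes and 0 UMIs in keratinocytes and fibroblasts.

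Basophils also held several cytokines of the innate kind. Il6 had 0 to 70 UMIs per basophil with a median of 16.5, was present in 48 of 50, and was 30.9-fold (28.2 to 33.9) higher than in other leukocytes, at 2623 against 84.8 CPM. Without mixed cells its ratio was 63.1 (56.2 to 70.8), at 4143 against 65.7 CPM. Keratinocytes and fibroblasts held Il6 too, with a UMI in 39.97% of cells and a level of 159 CPM. Osm, or oncostatin M, a cytokine of the interleukin 6 family, was 25.2-fold (22.3 to 28.5) higher and present in 48 of 50 basophils. Csf1, the macrophage growth factor, was 19.0-fold (16.2 to 22.2) higher, Hgf, the hepatocyte growth factor, 81.9-fold (55.1 to 124) and Lif 26.1-fold (18.9 to 35.9), the last with 76 UMIs in only 12 cells. Without mixed cells Csf1 was 59.4-fold (48.2 to 73.5) higher. Tnf was lower, at 36.6 against 105 CPM, and Areg, or amphiregulin, was lower at 84.5 against 568 CPM. Il1b was not called, at 3745 CPM in basophils against 3266 CPM in other leukocytes, and it was present in 27 of 50 basophils.

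Of 16 measured chemokine genes, 4 were higher and 7 lower with all cells, and 4 and 8 without mixed cells. The 4 were Ccl3, Ccl4, Ccl6 and Ccl9, which attract monocytes and other leukocytes. Ccl3 (ENSMUSG00000000982, chromosome 11, 83647844 to 83649355, protein-coding) had 0 to 569 UMIs per basophil with a median of 135, was present in 49 of 50, and stood at 21584 CPM in basophils against 627 CPM in other leukocytes, a 34.4-fold (33.3 to 35.6) ratio. Ccl4 had a median of 168.5 UMIs per basophil and was 14.8-fold (14.4 to 15.2) higher. Ccl6 was found in 44 basophils, at a ratio of 15.1 (14.2 to 16.1), and Ccl9 in 48, at a ratio of 12.6 (11.4 to 13.8). Among single gates Ccl3 stood at 866 CPM in mononuclear phagocytes and 794 CPM in neutrophils, and at 1.40 CPM in keratinocytes and fibroblasts, so the basophil level was above every other gate compared. Ccl5, Cxcl3, Cxcl10, Cxcl16 and Ccl2 were lower, and Cxcl2, a neutrophil attractant, was not called at 6743 against 5676 CPM.

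**Figure D3:**
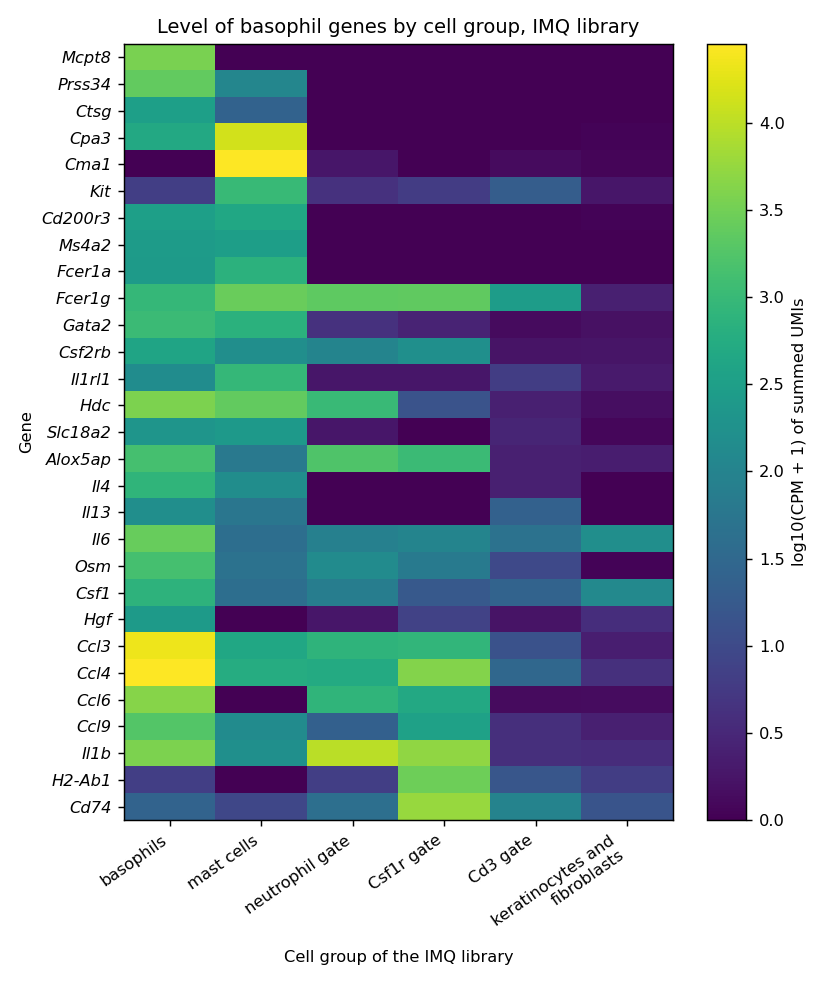
Rows are genes and columns are cell groups of the IMQ library, and colour gives log10 of CPM plus 1 from summed UMIs, including all 50 basophils. Mcpt8 and Prss34 are bright in the basophil column, Cma1 and Kit in the mast cell column, and Ccl3, Ccl4, Il6, Osm and Il4 are brighter in basophils than in any other column.

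Of 14 measured genes of antigen presentation and costimulation 0 were higher and 7 lower, with all cells and without mixed cells, and the lower ones were class II genes and Cd86, a costimulator. H2-Aa and H2-Eb1, chains of class II molecules, had 0 UMIs in the 50 basophils, and H2-Ab1 had 2 UMIs, against 1027, 1007 and 1248 CPM in other leukocytes. Cd74, the class II chaperone, had 9 UMIs in 7 basophils, at 25.4 against 2707 CPM, a ratio of 0.009 (0.004 to 0.018). The class I genes H2-D1 and H2-K1 were not called, at 1575 and 992 CPM in basophils against 1542 and 926 CPM in other leukocytes. In a total of 354891 UMIs, the class II chains H2-Aa, H2-Eb1 and H2-Ab1 were thus at or under the floor of 3 counts.

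The list of lineage transcription factors had 19 measured members, of which 4 were higher and 4 lower with all cells, and 7 and 4 without mixed cells. Beside Gata2, Cebpa was 3.59-fold (2.20 to 5.604) higher, with 22 UMIs in 12 cells, or 9.965-fold (5.48 to 17.2) without mixed cells, and Cebpb 2.30-fold (2.13 to 2.48) higher, in 49 of 50 basophils. Irf8, a factor of monocytes and dendritic cells, had 0 UMIs in basophils against 82.1 CPM in other leukocytes, and Id2 was lower, at 50.7 against 238 CPM, or 36.8 against 305 CPM without mixed cells. Runx1, at 296 against 198 CPM, was called only without mixed cells, at a ratio of 2.03 (1.62 to 2.52).

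Of 20 feedback genes of NF-kB and immediate early genes, 13 were called higher and 2 called lower with or without mixed cells, and the list's median log2 ratio was 1.16 with all cells and 1.43 without mixed cells. Nfkbia, the inhibitor of NF-kB, had 0 to 286 UMIs per basophil with a median of 36, and was 2.66-fold (2.56 to 2.77) higher. Ier3 and the phosphatase gene Dusp1 had ratios of 6.82 (6.48 to 7.17) and 3.50 (3.29 to 3.71), and Jun, an AP-1 subunit, one of 4.43 (4.22 to 4.64), or 9.42 (8.88 to 9.98) without mixed cells. Immediate early genes are also induced by tissue digestion, and the part of the digestion in these levels was not tested. Among STAT5 and survival genes 2 of 14 were higher and 5 lower with all cells, and 3 and 5 without mixed cells. Pim1, a STAT5 target, was present in 50 of 50 basophils and was not called with all cells, at 1744 against 994 CPM, but was 2.07-fold (1.89 to 2.26) higher without mixed cells. The near-identical survival genes Bcl2a1b and Bcl2a1d, between which reads can be split, were lower, with 2 UMIs of Bcl2a1b in basophils against 419 CPM in other leukocytes.

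Among 19 activation and granule membrane genes 8 were called higher and 5 called lower, with or without mixed cells. Cd63, a tetraspanin of granule membranes used as a degranulation marker, was 4.61-fold (4.14 to 5.12) higher, and Cd9, another tetraspanin, was present in 50 of 50 basophils and 3.55-fold (3.21 to 3.91) higher. Without mixed cells their ratios were 12.5 (10.8 to 14.4) and 6.57 (5.84 to 7.38). Lilrb4a, an inhibitory receptor, was 5.62-fold (4.99 to 6.32) higher. The early activation gene Cd69 had 0 to 33 UMIs per basophil and was 3.59-fold (3.09 to 4.15) higher. From the list of Toll-like receptors and interferon genes only Isg15 and Ifitm1 were called higher, 2 of 20, and 5 were called lower. Without mixed cells 2 of 19 were called higher and 6 lower. Tlr7, which encodes the receptor of imiquimod in mice, had 0 UMIs in the 50 basophils against 8.21 CPM in other leukocytes, a level at which an absence could not be told from a low level. For glycolysis and hypoxia 2 of 14 members were called higher and 2 lower with all cells, and 3 and 3 without mixed cells. For the cell cycle 0 of 14 were called higher and 2 lower with all cells, and 0 and 1 without mixed cells.

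The genes named for the largest ratios included some that are not part of any list. Csrp3, a muscle LIM protein gene, had 71 UMIs in 24 basophils, with 0 to 12 per cell, and was 707-fold (232 to 3510) higher than in other leukocytes, where 3 UMIs were found. Hs3st1, a heparan sulfate sulfotransferase gene, was 27.7-fold (21.04 to 36.6) higher in 35 basophils, or 43.7-fold (31.8 to 60.2) without mixed cells. On the lower side were genes of phagocytes and neutrophils, Lyz2 with 1 UMI in basophils against 2895 CPM in other leukocytes, Retnlg with 0 UMIs against 1542 CPM, Cd14 with 2 UMIs against 1123 CPM and Wfdc17 with 1 UMI against 1113 CPM. The T cell genes Il17a and Gzmc had 0 and 1 UMIs, against 1088 and 1069 CPM.

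Basophils were 0.588% of the cells and held 0.251% of the UMIs of the filtered IMQ library, yet for some genes they held most of the transcripts. Of 16050 genes with at least 20 UMIs, 11 had at least 50% of their UMIs in basophils and 55 at least 10%. For Il4 the share was 71.2% (66.5 to 75.5), 289 of 406 UMIs, and the mast cell and T cell gates held 4.68% and 0.985%. A single other leukocyte outside these gates held 53 Il4 UMIs. Without mixed cells basophils held 65.5% of Il4. For Ccl3 the basophil share was 46.8%, for Osm 40.2%, for Hdc 37.5% against 34.9% in the neutrophil gate, and for Ccl4 29.8% against 28.1% in the phagocyte gate. Il13 was divided between basophils, with 32.6% (25.7 to 40.1), and the T cell gate, with 36.6%. Of Il6 basophils held 4.29%, against 85.5% in keratinocytes and fibroblasts. Mcpt8, at 98.9%, is among the 11 genes but had chosen the cells, so its share is not a result. The next largest shares, Ms4a3 and Mpo aside, were Prss34 at 98.1%, Ctsg at 95.8%, Il4 at 71.2%, Alox15 at 66.7% and Csrp3 at 66.4%. Then came Ms4a2 at 63.9%, Cd200r3 at 55.3% and Cyp11a1 at 52.5%. The mast cell gate held 25.2% of Ms4a2, 26.9% of Cd200r3 and 21.1% of Cyp11a1, and none of these was called in basophils against mast cells. A single basophil held 584 of the 878 library UMIs of Prss34 and 95 of the 120 of Ctsg. Ms4a3 and Mpo, with 100% of 24 UMIs and 52.8% of 72 UMIs in basophils, each had all of the basophil UMIs in a single cell.

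**Figure D4:**
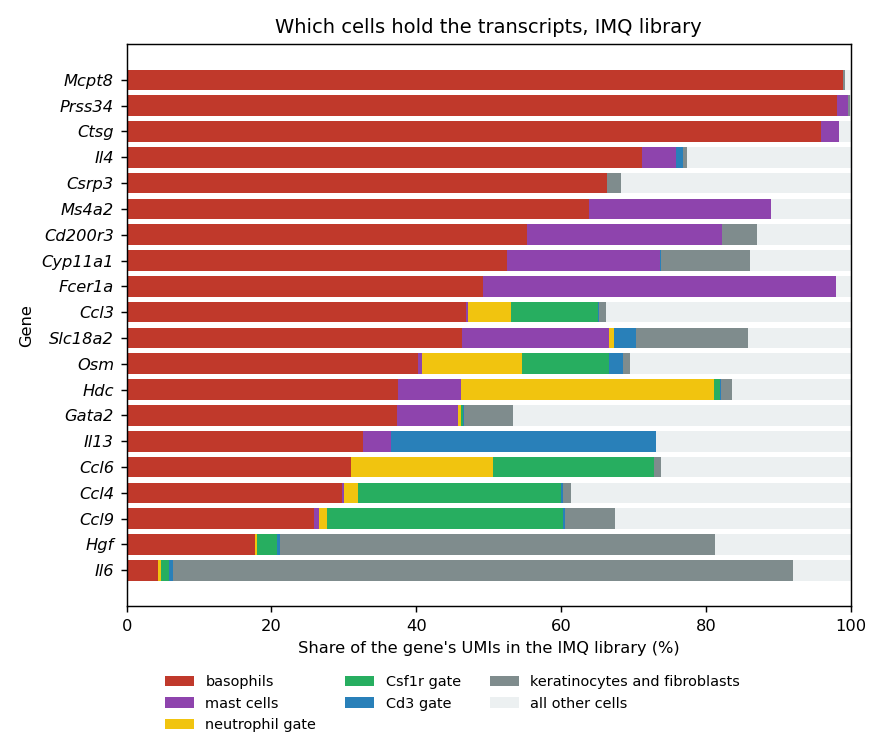
Bars give the share of each gene's UMIs in the filtered IMQ library held by each cell group, in percent of all UMIs of that gene, with basophils at the left. Basophils hold 71.2% of Il4 and 46.8% of Ccl3 but 4.29% of Il6, most of which lies in keratinocytes and fibroblasts.

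Among the 42 basophils without mixed cells, some genes were found in every cell, at levels that varied widely, and others in only part of them. Hdc ranged from 3 to 89 UMIs with a median of 21, Ccl3 from 13 to 569 with a median of 119, Ccl4 from 5 to 787 with a median of 185 and Cyp11a1 from 1 to 11 with a median of 5, and all 42 cells had each of them. Il4 was found in 31 cells, and the 5 highest held 70.7% of its UMIs. The cell with the most Il4 had 79 UMIs of Il4 and 15 of Mcpt8, so Il4 was not highest where Mcpt8 was highest. Il1b was found in 21 cells with up to 191 UMIs, and Cxcl2 in 22 cells with up to 274 UMIs. In some cells no transcript of these genes was captured and in others many were, and at a median of 4111 UMIs a 0 does not show absence. Both genes were also high in other leukocytes. S100a8, an abundant neutrophil transcript, had 8 UMIs in the 42 cells together, 1 at most in a cell, and Csf3r and Retnlg were at 0. The neutrophil gate gene Cxcr2 had 26 UMIs in 15 IMQ basophils, mixed cells included.

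With each cell thinned to 1500 UMIs, rank correlations over the 42 cells, which share 1 library, were highest for Ccl3 with Ccl4 (Spearman's rho 0.74), Il6 with Hdc (0.59), Prss34 with Fcer1a (0.56), Mcpt8 with Prss34 (0.54), Il4 with Ccl3 (0.50) and Il4 with Hdc (0.50). These are descriptions of 1 set of cells and carry no test. Mcpt8 had also chosen the cells, so its correlation with Prss34 covers only cells at or above the Mcpt8 minimum of the rule. Whether the correlation holds in cells below that minimum was not tested.

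**Figure D5:**
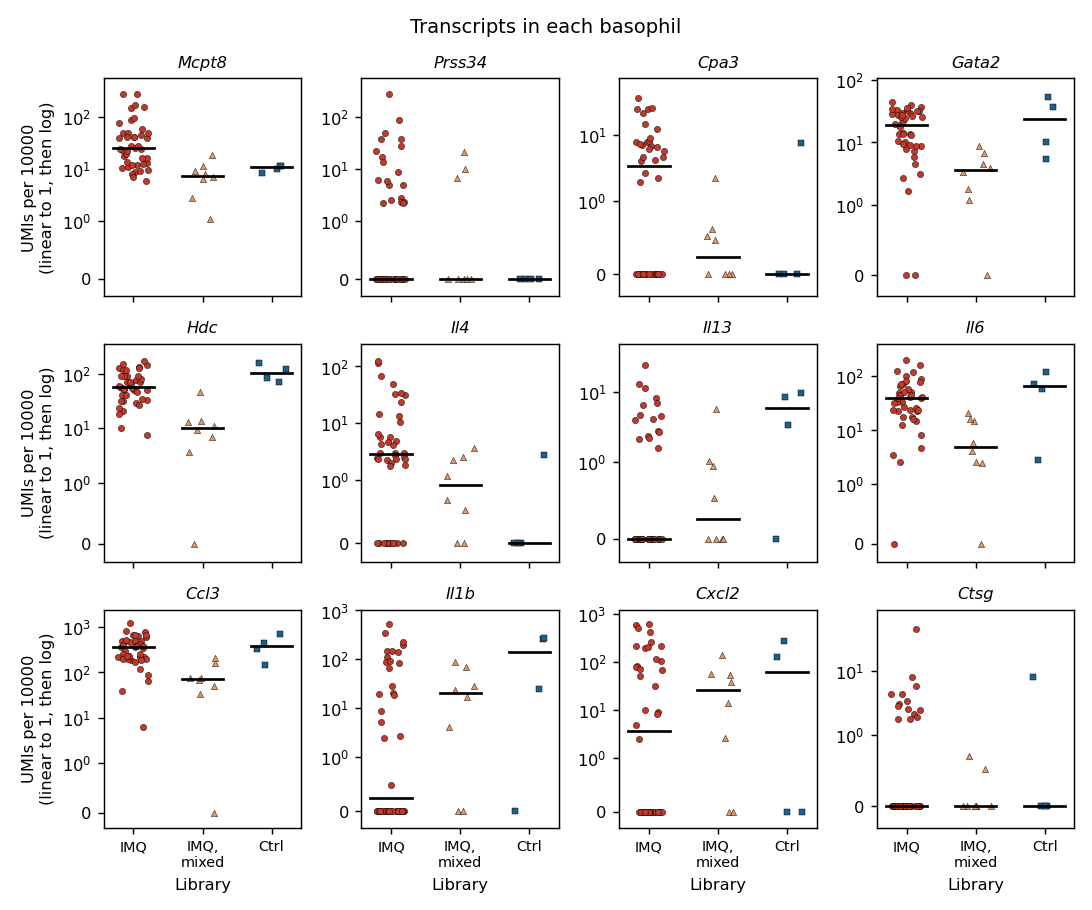
Each point is a basophil, with the gene's UMIs per 10000 UMIs of the cell on the y axis (linear to 1, then log), for the 42 IMQ cells, the 8 mixed IMQ cells and the 4 Ctrl cells, and bars at the medians. Hdc and Ccl3 are present in all 42 IMQ cells, whereas Prss34, Il4, Il13, Il1b, Cxcl2 and Ctsg are at 0 in many of them, and Prss34 is at 0 in all 4 Ctrl cells.

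A single basophil differed from the rest. The cell with the most Mcpt8, 326 UMIs, had 20873 UMIs and 4208 genes. It was under the thresholds that defined mixed cells, with 2 UMIs of Col1a1 and Col1a2, 3 of Krt5 and Krt14 and 0 of the Cd3 genes. It held all 38 UMIs of Mpo, the myeloperoxidase of promyelocytes, all 24 of Ms4a3, a gene of granulocyte progenitors, 95 of the 111 UMIs of Ctsg and 584 of the 738 of Prss34 in the 42 cells. Cell cycle genes were found in it with 97 UMIs over 14 of 14 list members, Top2a with 23 and Ube2c with 22, against 16 UMIs of the list in the other 41 cells together. Its Ccl3, Ccl4 and Il4 stood at the other end, with 13 UMIs of Ccl3, the fewest of the 42, 5 of Ccl4, the fewest together with another cell, and 0 of Il4, as in other cells. Its Cxcl2, at 21 UMIs, was above the median of 1.5. Mpo, Ms4a3, Ctsg and cell cycle genes are known from immature granulocytes of the bone marrow. One cell gives no measure of how frequent such cells were.

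The second comparison set the basophils against the 39 mast cells of the IMQ library, the cells most like them, which had a median of 1600 UMIs. Of 3085 genes measured, 359 (11.6%) were higher and 514 (16.7%) lower, and without mixed cells 259 of 1956 (13.2%) and 434 (22.2%). The median log2 ratio of all genes was -0.20, and -0.28 without mixed cells, and the share of higher genes among those called was 41.1%, or 54.1% when centred on the median. Mast cells were gated on Cma1, Mcpt4 and Tpsb2, so their proteases are not a result. Ccl5 and Gzma, genes of cytotoxic lymphocytes, were called lower in basophils, but their 1498 and 747 UMIs in the mast cell gate each lay in 6 cells, and so did those of Irf8 and Serpinb6b, also called lower.

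On the identity list 7 of 17 measured members were higher in basophils than in mast cells and 2 lower, and 10 and 1 without mixed cells. The higher ones included Prss34 at 22.01-fold (13.0 to 40.4), Csf1 at 19.2-fold (8.12 to 59.6) and Ifitm1 at 9.94-fold (7.85 to 12.8), and Csf1 stood at 35.6-fold (13.7 to 132) without mixed cells. Cd200r3 stood at 324 CPM in basophils and 441 CPM in mast cells, a ratio of 0.735 (0.529 to 1.03), Ms4a2 at 279 and 307 CPM, a ratio of 0.908 (0.621 to 1.35), and Cyp11a1 at 702 and 787 CPM, a ratio of 0.891 (0.704 to 1.13), and these 3 were not called. Without mixed cells the ratios of Cd200r3 and Ms4a2 were 1.12 (0.799 to 1.58) and 1.39 (0.940 to 2.07), still not called. Fcer1a was lower in basophils with all cells, at 265 against 732 CPM, and was not called without mixed cells, at a ratio of 0.541 (0.397 to 0.736). Fcer1g was lower both with all cells, at 0.340 (0.292 to 0.397), and without mixed cells, at 0.488 (0.415 to 0.572). Hdc and Gata2 were not called with all cells, at ratios of 1.54 (1.36 to 1.75) and 1.59 (1.26 to 2.03), and were called higher without mixed cells, at 2.30 (2.03 to 2.62) and 2.27 (1.79 to 2.91). Kit had 2 UMIs in basophils and 127 in mast cells, Mrgprb1, a receptor of skin mast cells, 0 against 132, and Cpa3 stood at 493 against 14024 CPM, a ratio of 0.0352, or 0.0582 without mixed cells. Il1rl1 was lower in basophils too, at 144 against 906 CPM.

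The cytokine and growth factor list had 9 of 12 measured members called higher and 1 lower, and its median log2 ratio was 2.81, or 3.30 without mixed cells. For chemokines 6 of 9 measured members were called higher and 3 lower, and without mixed cells 5 of 8 were higher and 3 lower. Ccl3 was 48.9-fold (37.7 to 64.9) and Ccl4 50.6-fold (40.1 to 64.9) higher in basophils, and Ccl6 had 1561 UMIs in basophils and 0 in mast cells, at least 186-fold higher against a floor of 3 counts. Il6, with 931 UMIs in basophils and 5 in mast cells, was 66.6-fold (28.4 to 206) higher, and Il4 was 5.44-fold (3.42 to 9.17) higher, at 814 against 150 CPM. Without mixed cells the ratio was 161 (55.04 to 784.5) for Il6, 8.59 (5.39 to 14.5) for Il4 and 76.1 (60.3 to 97.5) for Ccl4. Irg1, the enzyme that makes itaconate, had 857 UMIs in basophils and 1 in mast cells. Ptgs2 was 47.8-fold (20.4 to 148) higher, or 179-fold (49.4 to 1483) without mixed cells, and Alox5ap 21.4-fold (10.8 to 49.9) higher. Ccl2 went the other way, at 70.4 against 843 CPM, or 21.01 against 915 CPM without mixed cells. Il1b was 22.6-fold (14.8 to 36.7) higher, with all 21 UMIs of the mast cells in 1 cell. Saa3 and Fabp5, acute-phase and keratinocyte-rich genes, were higher with all cells, at 57.9-fold (26.5 to 158) and 42.9-fold (22.5 to 94.0), but at 1.64-fold (0.393 to 9.58), not called, and 2.38-fold (1.07 to 5.99) without mixed cells.

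The third comparison concerned what the 50 IMQ basophils had that the 4 Ctrl basophils had not, with 354891 against 15360 UMIs. Of 2240 genes measured, 82 (3.66%) were higher and 122 (5.45%) lower in IMQ basophils, and without mixed cells 48 of 1150 (4.17%) higher and 51 (4.43%) lower. The median log2 ratio of all genes was -0.50, and -0.12 without mixed cells, and 5 of 5 measured fibroblast markers were higher with all cells against 0 of 1 without mixed cells, so the calls that follow are given without mixed cells. With all cells the share of higher genes among those called was 40.2%, or 77.7% when centred, and without mixed cells it was 48.5%. The 4 Ctrl cells had 3, 4, 3 and 6 UMIs of Mcpt8, and 46, 43, 26 and 43 of Hdc, so all 4 had the histamine gene.

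Il4 and Prss34 were seen mostly in the IMQ cells. Prss34 had 738 UMIs in 20 of 42 IMQ cells and 0 in each of the 4 Ctrl cells, at least 19.8-fold higher against a floor of 3 counts, with 584 of these UMIs in 1 cell. The Ctrl cells had only 3 to 6 UMIs of Mcpt8. Most of the 42 IMQ cells in that Mcpt8 range also had 0 UMIs of Prss34, and none had more than 3. Whether Prss34 differs at equal Mcpt8 was not tested. Il4 had 266 UMIs in 31 of 42 IMQ cells and 0, 0, 1 and 0 UMIs in the 4 Ctrl cells. Its ratio was 21.5-fold (3.82 to 851), and the groups overlapped since 11 IMQ cells had none. Of the 42 IMQ cells, those in the Mcpt8 range of the Ctrl cells had up to 14 UMIs of Il4, and some had 0. The cell with most Il4, 79 UMIs, had 15 of Mcpt8. Whether Il4 differs at equal Mcpt8 was not tested either. With all IMQ basophils, mixed cells included, Prss34 and Il4 were still called higher when the top cell of each gene was left out of each group. Cpa3 was 3.41-fold (1.31 to 12.7) higher without mixed cells, on 4 UMIs in 1 Ctrl cell, and was not called with all cells, at 1.89 (0.727 to 7.03). Gzmb was 14.7-fold (2.60 to 583) higher, on 1 UMI in the Ctrl cells, and Osm 3.94-fold (2.05 to 8.66), at 2305 against 586 CPM. The NF-kB feedback and immediate early list had 10 of 18 measured members called higher and 0 lower, and its median log2 ratio was 1.15. Jun was 29.0-fold (11.3 to 107) higher, with 4 UMIs in the Ctrl cells, and Jund 4.195-fold (2.53 to 7.53).

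Several abundant genes of the basophils were not called in either direction without mixed cells. Ccl3 had 132, 118, 55 and 376 UMIs in the Ctrl cells, inside the range of the IMQ cells, and its ratio was 0.763 (0.705 to 0.827). Ccl4 and Ccl6 had ratios of 1.46 (1.33 to 1.60) and 1.16 (0.939 to 1.45), Il6 of 0.699 (0.562 to 0.879), Hdc of 0.590 (0.499 to 0.701) and Gata2 of 0.584 (0.427 to 0.817), and none of these was called. With all 50 cells Ccl3 (0.487), Il6 (0.443), Hdc (0.363) and Gata2 (0.376) were called lower. Il1b was lower in IMQ cells, at 4674 against 12240 CPM, a ratio of 0.382 (0.326 to 0.449), and Il13 at 210.1 against 586 CPM, 0.359 (0.171 to 0.840). Plek, the platelet and leukocyte protein pleckstrin, was lower at 1455 against 4232 CPM, and Furin, a protease that trims precursor proteins, at 457 against 2279 CPM. The kinase gene Tec and Csf2rb were lower as well, at ratios of 0.248 (0.130 to 0.506) and 0.366 (0.241 to 0.572). A single Ctrl cell held 39 of 65 UMIs of Plek, 24 of 35 of Furin, 15 of 28 of Csf2rb and 5 of 9 of Il13 in the Ctrl cells. Without the top cell of each gene in each group the count of lower genes among all 50 cells was 9, against 122 with the top cells included, and Plek was no longer called. Saa3, Fabp5 and Lgals7, which were higher in all 50 IMQ basophils, were not called in the 42, where they stood at 42.0, 163 and 121 CPM against 0 UMIs in the Ctrl cells. The Ctrl group was 4 cells of 1 library, and treatment and library cannot be told apart in any of these ratios.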

How the data were processed

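Whole skin was profiled in 1 IMQ and 1 Ctrl library. The values are raw UMI counts per gene and barcode, deposited by the authors with barcode and gene lists in matching order, and the listed barcodes had at least 500 UMIs. The submitters' processing notes name mm10, Seurat 2.0 and Cell Ranger 3.0.2, whereas per the file headers the matrices came from Cell Ranger 5.0.0. The gene annotation used for counting is not stated in the sources used here. Filters, gates and promoter motifs were as stated with the results. In IMQ 558 barcodes, and in Ctrl 192, had under 200 genes. Positions were looked up in GENCODE M21 (GRCm38), where 27645 of the 27998 gene IDs were found.

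For CPM, the UMIs of a gene were summed over a group of cells and scaled by the group's total. Shares have exact Clopper-Pearson intervals, CPM exact Poisson intervals and ratios exact conditional binomial intervals, all at 95%, computed with numpy 2.4.6, scipy 1.17.1 and pandas 2.3.3. PCR duplicates were collapsed by UMI, but the intervals cover counting error only. With 1 library per condition no test was possible. A ratio to 0 was taken to a floor of 3 counts in the group at 0, and such members enter list medians at that bound. The procedure was tested on simulated data. Doublets were called in each library with Scrublet in scanpy 1.11.5 at 0.8% per 1000 cells and removed only as an alternative. Its low rate in IMQ means that doublets may remain.

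Within cells with a Ptprc UMI, the T cell gate needed 2 UMIs of Cd3d, Cd3e and Cd3g, the phagocyte gate 2 of Csf1r and the neutrophil gate 3 of Csf3r, Cxcr2 and Retnlg. The neutrophil genes were not used to define mixed cells, because Cxcr2 alone met that threshold in basophils. Keratinocytes and fibroblasts without a Ptprc UMI and with at least 20 UMIs of the collagens or keratins estimated free RNA. Cells and 16 gene lists were chosen with earlier results of these data known. The rule for named genes took the identity list, the highest and lowest genes of each comparison by the interval bound nearer to 1 among genes of at least 50 UMIs and 100 CPM, the members of each list with the highest CPM in basophils, and the genes with the largest library share in basophils. Members outside it, such as Tlr7, Ptgdr2, Lyn, Tnf and Areg, and the cell with most Mcpt8, were chosen after their values were seen. The exclusion of mixed cells, of other leukocytes with a Mcpt8 UMI and of the cell with most Mcpt8 was added after the data had been seen. Some members of the lists are counted but not reported by name here.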

Additional observations from a re-analysis of the deposited data

How the results depend on the processing

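The ratio of basophil shares kept its direction under 9 alternatives, from 5.90 to 19.0, and with at least 10 Mcpt8 UMIs no Ctrl cell was left, which makes it at least 11.3 and gives the comparison with Ctrl basophils no value. The basophil share of Il4 was 54.9% with at least 10 Mcpt8 UMIs and 65.5% without mixed cells. Against other leukocytes, the mean of per-cell CPM gave 1933 higher and 4084 lower genes, equal weight of 3 leukocyte gates 2259 and 2194, and leaving out the top cell of each gene 340 and 2320. Against mast cells per-cell means gave 624 higher and 883 lower genes, and a minimum of 1 UMI gave 1090 lower. Against Ctrl basophils the counts of higher and lower genes were 48 and 51 without mixed cells, 189 and 869 with per-cell means and 164 and 47 when centred, and the lower count was 185 with a minimum of 1 UMI and 9 without the top cell of each gene. In that comparison Csf1 changed direction, at 2.10 without the top cell of each gene. Lgals7 at 0.618 and Fabp5 at 0.834 without mixed cells, and Fabp5 at 0.736 without the top cell, are lower bounds against a floor of 3 counts, since the Ctrl cells had 0 UMIs, and show no change of direction. The cause of these differences was not tested. In the comparison with other leukocytes 1389 of 1436 recomputed gene ratios kept their call and 0 changed direction, and in that with mast cells 423 of 431 and 0. Against Ctrl basophils 233 of 263 kept their call, 19 lost it and 7 gained one. The other 4 were counted as reversed, namely the values of Csf1, Lgals7 and Fabp5 given above. Removing Scrublet doublets, leaving out the cell with most Mcpt8 or requiring another marker moved none of these counts by more than 1.5-fold. No paired analysis was possible because each condition had 1 library. Low depth, a median of 4371 UMIs per basophil and 4 Ctrl cells, limits genes of few UMIs.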
